A study of Mus musculus with 6 samples.

Results

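RNA-Seq of cultured BM MSCs from mice given FMT was examined for 10 genes of early neutrophil development. They were 4 enzymes of the primary granule (*Mpo*, *Elane*, *Prtn3* and *Ctsg*), the membrane protein gene *Ms4a3*, the transcription factors *Cebpe*, *Gfi1* and *Myb*, and the progenitor surface genes *Flt3* and *Cd34*. The 10 genes were taken by name from 56980 genes in the deposited table, and all 10 were among the 15190 genes whose counts allowed a test. They were selected with the results of this same contrast known, so their differences between the groups are given as a description, without a p-value.

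Recipients in both groups were female mice that had undergone OVX (ovariectomy, the removal of the ovaries) at 8 weeks of age, and their own gut flora had been depleted with antibiotics. The TranspCtrl group (3 samples) then received feces daily for 8 weeks from sedentary OVX donors, and the TranspExer group (3 samples) from OVX donors trained on a treadmill. Marrow flushed from femurs and tibias was cultured for 7 days with repeated washes, and no sorting step is described, so blood cells that persist in such cultures can contribute RNA. The labels do not say whether the replicates of a group were separate mice, so that SEs and p-values measure the spread between these samples only.

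Total counts ranged from 17647638 to 21319166 per sample, and 3 counts equalled at most 0.174 CPM (counts relative to the library's size, scaled with TMM factors). The markers of the labelled stromal cells were present, with a summed level of 11900 to 19800 CPM in TranspCtrl and 13100 to 14300 CPM in TranspExer over 12 genes, *Col1a1* and *Pdgfra* included. Most of this sum came from *Col1a1* (4560 to 9950 and 6790 to 7710 CPM) and *Col1a2* (5130 to 7350 and 4070 to 4380 CPM). Means of the other markers went from 7.21 and 3.43 CPM for *Nt5e* to 1396 and 1016 CPM for *Cxcl12* in TranspCtrl and TranspExer. TranspCtrl replicate 1 stood apart from its group, at a Euclidean distance of 60.2 to 62.8 over the log2 CPM of tested genes from the other TranspCtrl samples, which were 37 apart. In this sample immunoglobulin genes took 1.77% of the counts, against 0.84% and 0.964% in TranspCtrl replicates 2 and 3 and at most 0.212% in TranspExer.

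Neutrophils arise in the marrow from stem cells through granulocyte-monocyte progenitors, and the promyelocyte stage fills the primary (azurophil) granules with myeloperoxidase and a family of serine proteases. Transcription of these granule genes is switched on early, depends on factors such as PU.1, C/EBP proteins and MYB, and is shut off as the cells mature and turn to later granule proteins. Messages of the primary granule genes are therefore used as markers of immature granulocytic cells, not of mature neutrophils.

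The promoter sequences of the 4 granule enzyme genes are shown because these genes had the largest differences between the groups among the 10. They come from RefSeq windows on GRCm38.p6 that reach from 250 bases before a gene's start to 50 bases after it, a table that held 9 of the 10 genes (all but *Cebpe*). Each is printed on the strand of its gene and ends before the first base inside its window that GENCODE M21 places in an exon of that gene. For *Prtn3* the annotation also holds a transcript that begins further upstream, at the start of the gene's span given with its values, so its stretch lies within that span. Capitals mark the letters GAGGAA, which PU.1 can bind. The printed stretches lie at chr11:87793534-87793580 (plus strand) for *Mpo*, chr10:79886062-79886246 (plus strand) for *Elane*, chr10:79879417-79879613 (plus strand) for *Prtn3* and chr14:56102575-56102824 (minus strand) for *Ctsg*.
*Mpo*: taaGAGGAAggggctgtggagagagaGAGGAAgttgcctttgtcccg
*Elane*: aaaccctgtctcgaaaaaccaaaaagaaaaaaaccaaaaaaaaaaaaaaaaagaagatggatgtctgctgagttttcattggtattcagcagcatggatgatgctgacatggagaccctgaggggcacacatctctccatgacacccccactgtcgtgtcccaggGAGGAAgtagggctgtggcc
*Prtn3*: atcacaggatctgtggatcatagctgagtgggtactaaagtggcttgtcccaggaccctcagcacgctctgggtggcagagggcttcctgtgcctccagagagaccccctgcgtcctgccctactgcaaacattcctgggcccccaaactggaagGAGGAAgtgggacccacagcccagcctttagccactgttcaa
*Ctsg*: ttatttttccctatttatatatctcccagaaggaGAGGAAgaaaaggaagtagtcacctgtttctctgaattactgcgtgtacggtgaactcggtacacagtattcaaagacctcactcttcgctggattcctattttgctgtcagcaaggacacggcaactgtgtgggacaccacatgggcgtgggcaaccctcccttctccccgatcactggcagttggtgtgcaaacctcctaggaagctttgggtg

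All 4 granule enzyme windows held GAGGAA, as did that of *Ms4a3*, making 5 of 9 genes, and every match lay on the strand of the gene. Searched on both strands, these letters occurred in 28.3% of 32851 RefSeq windows of the same length. The match began 20 bases before the first GENCODE exon of the window in *Elane*, 42 bases before it in *Prtn3*, 44 and 21 bases before it in *Mpo* and 216 bases before it in *Ctsg*. In *Ms4a3* the match began 35 bases after the gene's start, and the 250 bases before the start held none. The longer string GAGGAAGT, which overlaps the first and was chosen after the sequences were read, was present in *Mpo*, *Elane* and *Prtn3* and in 3.2% of all windows. The letters TTNNGNAA of C/EBP proteins were found in 2 of the 9 genes and in 0 of the 4 granule enzyme genes, against 40.7% of all windows. AACNG, a core of the MYB site, was found in 8 of the 9 genes and in 80.3% of all windows, and TGNGGT of RUNX proteins in 3 of the 9 and in 45.8%. *Gfi1* has 2 windows in the table, and a match in either was counted. These matches describe the letters in the windows and were not related to binding.

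Granule enzyme genes were higher in TranspExer in all 4 cases, with no overlap between the groups. Over all tested genes, 27.2% were higher and 25.1% lower in TranspExer without overlap, so separate groups alone were common. In bulk RNA, fewer cells of a type and less RNA per cell cannot be told apart, which holds for each level given here. *Mpo* (chr11:87793581-87804413) encodes myeloperoxidase, which makes hypochlorous acid in the phagosome. Its level was 151, 241 and 257 CPM in TranspCtrl replicates 1, 2 and 3, and 1150, 1160 and 1280 CPM in TranspExer replicates 1, 2 and 3. The lowest TranspExer sample thus lay far above the highest TranspCtrl sample, and TranspCtrl replicate 1 lay below the other samples of its group. The fitted difference was 5.54-fold, a log2 fold change of 2.47 ± 0.19 (SE, n = 3 per group), and 2.27 without TranspCtrl replicate 1.

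*Elane* (chr10:79886247-79888215) encodes neutrophil elastase. It measured 73.9, 99.1 and 120 CPM in the 3 TranspCtrl samples and 427, 435 and 442 CPM in the 3 TranspExer samples. As with *Mpo*, the TranspCtrl samples were spread widely (a coefficient of variation of 23.5%, and 26.5% for *Mpo*) while the TranspExer samples were close together (1.77% and 6.12%). The difference was 4.46-fold, a log2 fold change of 2.16 ± 0.16 (SE), and 1.99 without TranspCtrl replicate 1.

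*Prtn3* (chr10:79874476-79883174), whose product proteinase 3 is a close relative of elastase, lies 3.07 kb upstream of *Elane* on the same strand. Its values were 68.3, 61.2 and 67.8 CPM in TranspCtrl and 239, 231 and 215 CPM in TranspExer. Unlike *Elane*, this gene was not lowest in TranspCtrl replicate 1, where it was at its group's highest level. The groups differed by 3.47-fold, or 1.79 ± 0.08 (SE) on the log2 scale. *Plppr3* overlaps *Prtn3* on the opposite strand and had at most 257 counts, against 1193 to 4564 counts for *Prtn3*. Whether the counting used strand is not given in the sources used here.

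*Ctsg* (chr14:56099881-56102574) encodes cathepsin G, the chymotrypsin-like protease of the granule. Its level was 31.7, 24.5 and 26.9 CPM in TranspCtrl and 107, 98.3 and 100 CPM in TranspExer. Every TranspExer sample lay above every TranspCtrl sample. The difference of 3.67-fold corresponded to a log2 fold change of 1.88 ± 0.11 (SE).

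**Figure D1:**
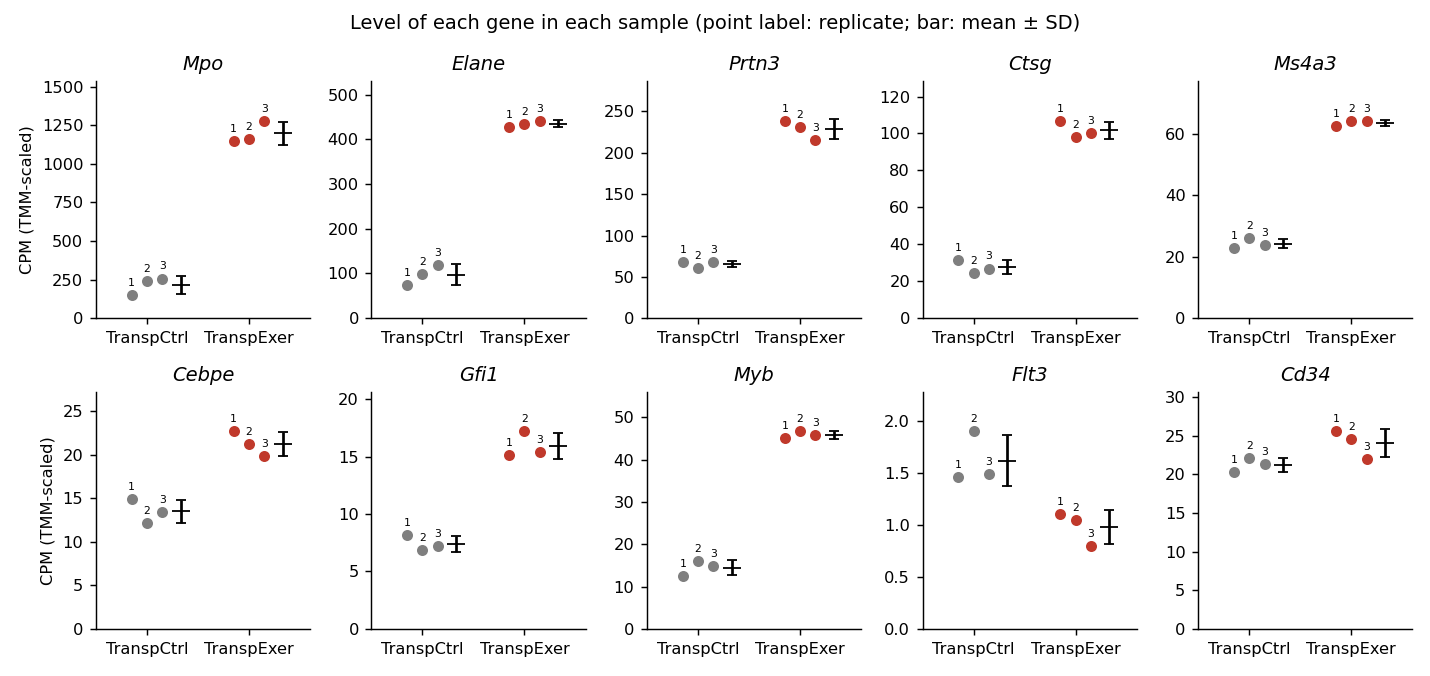
Level of each of the 10 genes in CPM (TMM-scaled, linear axis from 0, own scale per panel) in each sample, with the replicate number above each point and the mean ± SD (n = 3) beside each group. The groups do not overlap in the panels of 9 genes, with *Flt3* lower and 8 genes higher in TranspExer, and they overlap for *Cd34*.

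Expressed per length of the gene model, as TPM (each count divided by the deposited length and then scaled to a common total), the 4 granule enzyme genes together reached 477.8, 580.8 and 638.7 TPM in TranspCtrl replicates 1, 2 and 3. In the TranspExer replicates the sum was 2396, 2464 and 2539 TPM. The mixture within the sum differed between samples too. *Mpo* made up 24%, 32.2% and 30.3% of it in TranspCtrl and 35%, 35.6% and 38% in TranspExer. *Prtn3* accounted for 29.2%, 21.9% and 21.5% in TranspCtrl and for 19.6%, 18.9% and 17.1% in TranspExer. For *Elane* the shares overlapped between the groups, with 32.9%, 36.9% and 39.5% against 36.4%, 37.2% and 36.7%. TranspCtrl replicate 1 had the lowest share of *Mpo* and the highest share of *Prtn3* of all 6 samples. By TPM, *Elane* was the 564th to 941st most abundant gene in the TranspCtrl samples and the 137th to 148th in the TranspExer samples.

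**Figure D2:**
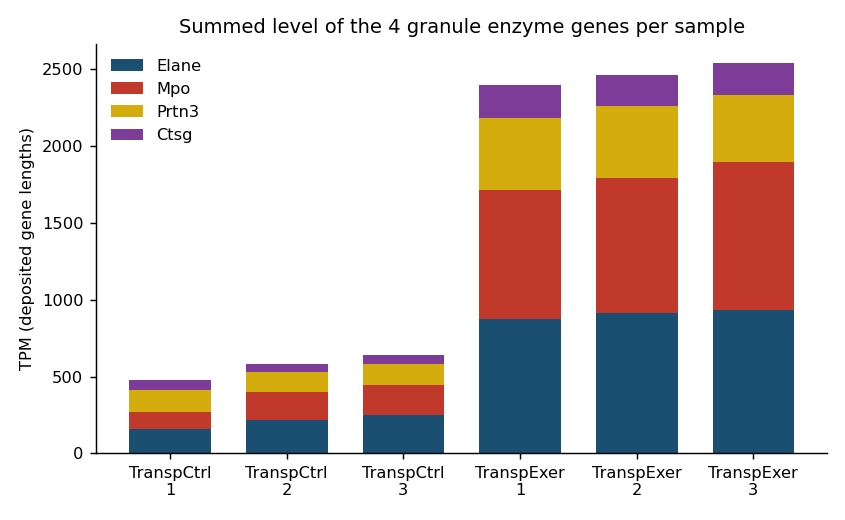
Summed TPM (from deposited gene lengths, linear axis from 0) of *Elane*, *Mpo*, *Prtn3* and *Ctsg* in each sample, stacked by gene. The TranspCtrl bars reach 477.8 to 638.7 TPM and the TranspExer bars 2396 to 2539 TPM.

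*Ms4a3* (chr19:11629496-11640851) encodes a membrane protein of the MS4A family that is largely restricted to granulocyte-monocyte progenitors and their early progeny. It was measured at 22.9, 26 and 23.9 CPM in TranspCtrl and at 62.4, 64.3 and 64 CPM in TranspExer. Both groups were tight, with coefficients of variation of 6.7% and 1.58%, and did not overlap. The level was 2.62-fold higher in TranspExer, with a log2 fold change of 1.39 ± 0.08 (SE).

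The transcription factor genes were higher in TranspExer by unequal amounts. *Myb* (chr10:21124935-21160984), a factor that maintains proliferating progenitors, had the largest of the 3 differences. It was at 12.6, 16.1 and 14.8 CPM in TranspCtrl and at 45, 46.7 and 45.8 CPM in TranspExer, without overlap. This was a 3.16-fold difference and a log2 fold change of 1.66 ± 0.10 (SE), between those of *Prtn3* and *Ms4a3*.

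*Gfi1* (chr5:107716657-107726036) encodes a repressor that favors the granulocytic over the monocytic fate. Its values were 8.2, 6.83 and 7.21 CPM in TranspCtrl and 15.1, 17.2 and 15.4 CPM in TranspExer. The groups were separate, with a 2.14-fold difference and a log2 fold change of 1.10 ± 0.12 (SE).

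*Cebpe* (chr14:54710360-54712174) encodes the factor that drives the step from promyelocyte to later stages with secondary granules. It measured 14.9, 12.2 and 13.4 CPM in TranspCtrl and 22.7, 21.2 and 19.9 CPM in TranspExer. The groups did not overlap either, but the difference was 1.58-fold, with a log2 fold change of 0.66 ± 0.11 (SE), the smallest of the 3 factors. The ratio of *Cebpe* to *Gfi1* in TPM was 3.86, 3.79 and 3.95 in TranspCtrl and 3.2, 2.62 and 2.74 in TranspExer.

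Neither progenitor surface gene was higher in TranspExer by as much as 2-fold. *Flt3* (chr5:147330741-147400489), the receptor of FLT3 ligand on multipotent and lymphoid-primed progenitors, had few reads. It had 30, 37 and 32 counts in TranspCtrl and 21, 18 and 16 counts in TranspExer, or 1.46, 1.9 and 1.49 CPM against 1.1, 1.05 and 0.795 CPM. All TranspExer samples were lower, by 1.65-fold, with a log2 fold change of -0.72 ± 0.26 (SE), the widest error of the 10 genes.

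*Cd34* (chr1:194938819-194961279) encodes a sialomucin of progenitors that endothelial and some stromal cells also carry. Its level was 20.3, 22.1 and 21.4 CPM in TranspCtrl and 25.6, 24.6 and 22 CPM in TranspExer. TranspExer replicate 3 was below TranspCtrl replicate 2, so the groups overlapped, and the log2 fold change was 0.18 ± 0.09 (SE).

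Counted together, 7 of the 10 genes were at least 2-fold higher in TranspExer without overlap, where the same held for 3.67% of all tested genes. Since the genes were chosen from this contrast, nothing is read from that difference. Their median log2 fold change was 1.52, beside -0.02 over all tested genes. Sorted by log2 fold change among 15190 genes, *Mpo* was in place 37 and *Elane* in place 59. The other places were 113 for *Ctsg*, 139 for *Prtn3*, 174 for *Myb*, 275 for *Ms4a3*, 482 for *Gfi1*, 1245 for *Cebpe*, 4868 for *Cd34* and 13641 for *Flt3*. TranspCtrl replicate 1 was the lowest sample of its group for 6 of the 10 genes and the highest for the other 4.

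**Figure D3:**
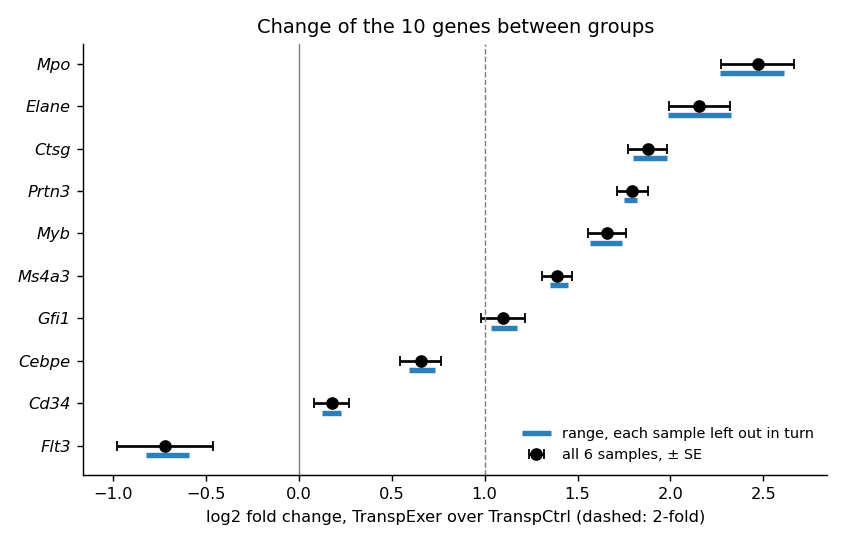
Log2 fold change of TranspExer over TranspCtrl for the 10 genes (points with SE, 3 samples per group), with the blue bar spanning the values when each sample was left out in turn and the dashed line at 2-fold. *Mpo* ranges from 2.27 to 2.61 and *Flt3* from -0.82 to -0.59 under this omission.

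Ordered by mean TPM, the level in TranspCtrl went from *Elane* (208 ± 47.8, SD) through *Mpo* (165 ± 43.7), *Prtn3* (135 ± 6.53), *Ctsg* (58 ± 7.34), *Ms4a3* (50.4 ± 3.95), *Cebpe* (22.8 ± 2.16), *Cd34* (18.2 ± 0.941), *Myb* (8.26 ± 1.06) and *Gfi1* (5.9 ± 0.538) to *Flt3* (0.93 ± 0.153). Neighbors in this order whose samples overlapped were *Elane* and *Mpo*, *Mpo* and *Prtn3*, and *Ctsg* and *Ms4a3*. In TranspExer the order was the same except that *Myb* (25.5 ± 0.851) stood above *Cd34* (20.1 ± 1.33). There, only *Elane* (907 ± 30.4) and *Mpo* (894 ± 64.8) overlapped as neighbors. *Flt3* stood last in both groups, at 0.55 ± 0.0859 TPM in TranspExer.

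To set these values beside other stages of the same lineage, lists of related genes were examined in edgeR's quasi-likelihood fit with Benjamini-Hochberg adjustment over all genes, and a gene rose or fell when its adjusted p-value was under 0.05 and its fold change at least 2. Over all tested genes, 3.5% rose and 5.28% fell by both thresholds, while 16.6% were higher and 15.5% lower by the adjusted p-value alone. At an unadjusted p under 0.05, 22.3% were higher and 22% lower. Of 12 other genes for the cargo and building of primary granules, 11 were tested and 1 rose. This was *Prss57*, the fourth neutrophil serine protease (NSP4), at 4.93, 6.37 and 6.09 CPM in TranspCtrl and 22.9, 22.3 and 23.3 CPM in TranspExer (log2 fold change 1.98 ± 0.12, adjusted p = 4.96e-05). The lysozyme genes *Lyz2* and *Lyz1*, which macrophages also express, fell, with log2 fold changes of -1.14 ± 0.23 (adjusted p = 0.00873) and -1.12 ± 0.30 (adjusted p = 0.0254). Both were highest in TranspCtrl replicate 1, and without it neither passed (-0.80 and -0.73), nor did either without TranspExer replicate 3 (-1.08 and -1.14). *Lyz1* also lost its call without TranspExer replicate 1 (-1.12) or 2 (-1.13). These paralogs are near-identical, so their reads may have been split between them. By the adjusted p-value alone, 4 genes of this list were higher, among them the granule proteoglycan gene *Srgn* (0.78 ± 0.08, adjusted p = 0.000358). *Ctsc*, the peptidase that activates the granule serine proteases, was at 672 to 770 CPM over the 6 samples (-0.01 ± 0.09, adjusted p = 0.948).

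The list of late neutrophil genes holds those of secondary and tertiary granules and of mature cells. Of 18 tested genes, 0 rose and 1 fell by both thresholds in edgeR's quasi-likelihood test, with the same counts in DESeq2 and with 7 higher and 3 lower at an unadjusted p under 0.05. The gene that fell was *Mmp9*, gelatinase of the tertiary granule and a product of osteoclasts as well (log2 fold change -2.42 ± 0.16, adjusted p = 6.5e-05). The secondary granule gene *Ltf*, for lactoferrin, was at 514 to 554 CPM in TranspCtrl and 549 to 576 CPM in TranspExer (0.07 ± 0.08, adjusted p = 0.506). *Ngp*, another gene of that granule, was higher by the adjusted p-value alone, at 1290 to 1410 CPM against 1840 to 2060 CPM (0.53 ± 0.09, adjusted p = 0.00386). The median log2 fold change was 0.11 for the late list and 0.26 for the other primary granule genes, beside 1.52 for the 10 genes described. Those 10 were chosen with this contrast known, so nothing is read from the difference between these medians.

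Among 24 stem and progenitor genes, 9 rose and 1 fell. *Kit*, the stem cell factor receptor, was at 16.3, 16 and 14.7 CPM in TranspCtrl and at 52.5, 50.8 and 53.4 CPM in TranspExer (log2 fold change 1.74 ± 0.08, adjusted p = 2.35e-05). *Adgrg1*, an adhesion receptor of stem cells (1.90 ± 0.15, adjusted p = 0.000124), and *Erg*, a factor shared with endothelium (1.08 ± 0.12, adjusted p = 0.000587), rose as well, although *Erg* stayed just under 2-fold with upper-quartile factors (0.9955) or library size only (0.9879). *Ly6a*, the gene of Sca-1, was the one that fell (-1.07 ± 0.12, adjusted p = 0.000684), and without TranspCtrl replicate 1 it no longer passed (-0.93). Of 18 regulators of the granulocyte-monocyte fate, 1 rose and 0 fell by both thresholds in edgeR, with the same counts in DESeq2 and with 8 higher and 1 lower at an unadjusted p under 0.05. It was *Gfi1b*, the paralog of *Gfi1* used in erythroid and megakaryocytic cells, at 1.18 to 1.35 CPM against 3.45 to 4.87 CPM (1.69 ± 0.21, adjusted p = 0.000931). *Cebpa* and *Spi1*, the gene of PU.1, were higher by the adjusted p-value alone (0.80 ± 0.18, adjusted p = 0.013, and 0.50 ± 0.10, adjusted p = 0.00913).

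Of 18 ligands and receptors that act on myeloid progenitors, 15 were tested and 1 fell. The gene that fell was *Csf2*, for GM-CSF, with 16, 13 and 14 counts in TranspCtrl and 1, 4 and 0 counts in TranspExer (log2 fold change -2.89 ± 0.67, adjusted p = 0.0145). It no longer passed without TranspExer replicate 1 (-2.63), and its log2 fold change was -4.48 without TranspExer replicate 2 and -2.30 without TranspExer replicate 3. *Flt3l*, the ligand of FLT3, was at 8.56 to 9.81 CPM and 8.25 to 9.26 CPM (-0.08 ± 0.12, adjusted p = 0.611), and *Kitl*, the ligand of KIT, was at 79.1 to 98.9 CPM and 88.8 to 90.2 CPM (0.02 ± 0.09, adjusted p = 0.913). *Csf3*, for G-CSF, had 1 count in a single sample.

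Genes beside the members in the genome were examined because *Prtn3* and *Elane*, and *Ctsg* with the granzymes and mast cell proteases, lie in clusters. Of 26 neighbors, 23 were tested, 2 rose and 4 fell. *Epx*, the eosinophil peroxidase gene that lies 59.6 kb from *Mpo* with 2 coding genes in between, rose, with 2.73, 2.26 and 2 CPM in TranspCtrl and 15.1, 15.5 and 18 CPM in TranspExer (log2 fold change 2.80 ± 0.16, adjusted p = 4.26e-05). *Lpo*, the lactoperoxidase gene 2.02 kb from *Mpo*, had 0 counts in each TranspCtrl sample and 5, 4 and 5 counts in the TranspExer samples, too few to be tested. *Ms4a2*, 5.78 kb from *Ms4a3*, encodes a chain of the IgE receptor of basophils and mast cells and rose by 1.01 ± 0.16 on the log2 scale (adjusted p = 0.00283), a call lost in 7 of the 13 alternatives. Of the 5 tested genes near *Ctsg*, 3 fell, namely *Gzmc* (-2.10 ± 0.19, adjusted p = 0.00023), *Gzmb* (-1.32 ± 0.16, adjusted p = 0.000756) and *Cma1* (-1.36 ± 0.26, adjusted p = 0.00647). These 3 lie 129 to 156 kb from *Ctsg*, with 5 or 6 coding genes in between. The pair closest to *Ctsg* did not pass, with log2 fold changes of 0.41 ± 0.19 for *Mcpt8* (adjusted p = 0.139), 14.6 kb away, and -0.27 ± 0.15 for *Gzme* (adjusted p = 0.192), 15.1 kb away. *Ms4a1*, the CD20 gene of B cells, lies 363 kb from *Ms4a3* with 12 coding genes in between and fell as well (-1.25 ± 0.08, adjusted p = 6.19e-05). *Cfd*, 2.64 kb from *Elane*, had at most 1 count in a sample.

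Markers of other cells that such a culture can hold were examined beside the granule genes. Of 9 eosinophil markers, 7 rose and 1 fell, and their summed level was 49.2 to 61.6 CPM in TranspCtrl and 144 to 153 CPM in TranspExer. *Prg3* (log2 fold change 4.05 ± 0.32, adjusted p = 0.000121), which encodes a granule protein, rose, and *Il5ra*, the interleukin-5 receptor (-1.98 ± 0.13, adjusted p = 6.19e-05), fell. Of 10 basophil and mast cell markers, 8 were tested, 3 rose and 1 fell, with sums of 65.5 to 82.4 CPM and 124 to 133 CPM. All 12 endothelial markers were tested and 10 of them rose, with sums of 241 to 298 CPM and 841 to 906 CPM, and *Emcn* had the smallest adjusted p-value of them (1.51 ± 0.09, adjusted p = 5.25e-05). *Cd34* and *Erg* are expressed in endothelium too. Of 11 erythroid and megakaryocyte markers, 6 were tested and 4 rose, with sums of 248 to 313 CPM and 441 to 477 CPM, while *Klf1*, *Alas2* and *Hbb-bs* had at most 3 counts in each sample. The part of these cells in the levels of the 10 genes was not tested.

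Of 12 B and plasma cell markers, 9 were tested and 6 fell, with sums of 1810 to 2110 CPM in TranspCtrl and 633 to 658 CPM in TranspExer, and *Mzb1* had the smallest adjusted p-value of them (-3.56 ± 0.13, adjusted p = 9.98e-06). None of the 12 monocyte and macrophage markers passed both thresholds in edgeR, nor in DESeq2, with 4 higher and 2 lower at an unadjusted p under 0.05, and their sums overlapped, at 4340 to 5260 CPM and 4880 to 5060 CPM. The 10 proliferation genes gave 0 calls in both tools as well, with 4 higher and 1 lower at an unadjusted p under 0.05 and sums of 1070 to 1160 CPM and 1230 to 1240 CPM. Of 12 stromal markers, *Eng* rose (1.69 ± 0.16, adjusted p = 0.000285) and *Pdgfra* (0.499 of the TranspCtrl level, adjusted p = 7.67e-05) and *Nt5e* (-1.07 ± 0.16, adjusted p = 0.00218) fell. By the adjusted p-value alone, 3 stromal markers were higher and 6 lower, and the median log2 fold change of the list was -0.35. *Pdgfra* missed the 2-fold threshold without TranspCtrl replicate 2 (-0.9743) or without TranspExer replicate 1 (-0.9989), and *Nt5e* without TranspExer replicate 3 (-0.995).

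**Figure D4:**
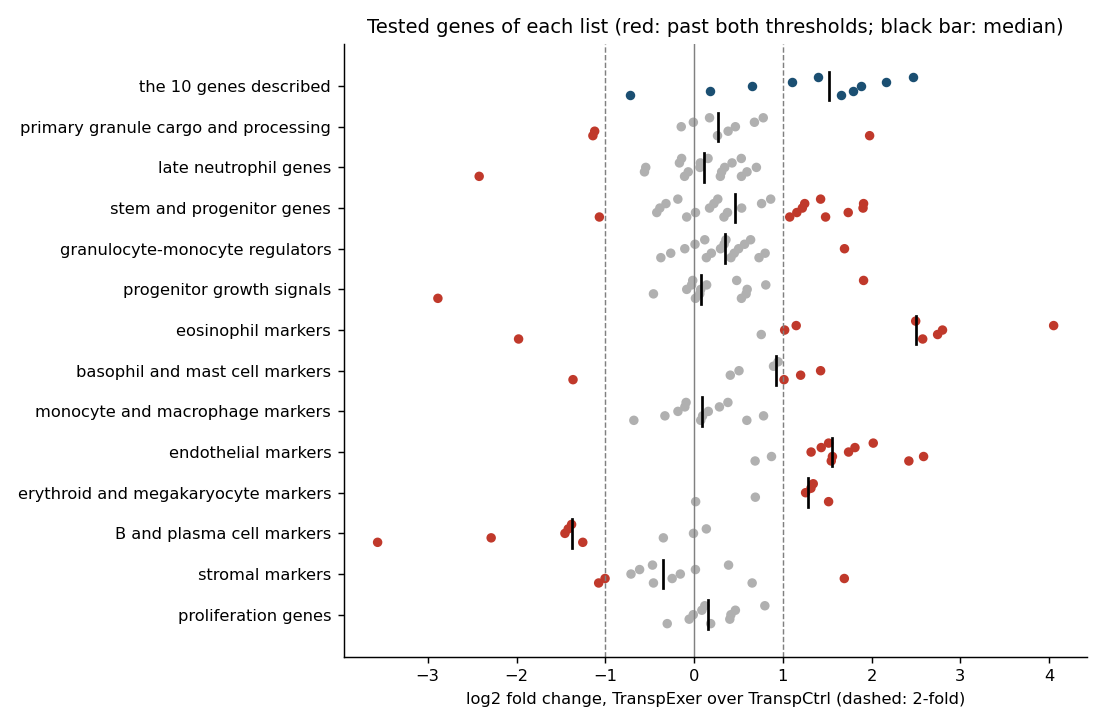
Log2 fold change of TranspExer over TranspCtrl for each tested gene of each list (points, red past both thresholds), with the list's median as a black bar and 2-fold as dashed lines. The 10 genes described (blue, not tested, chosen with this contrast known) have a median of 1.52, late neutrophil genes 0.11, eosinophil markers 2.5 and endothelial markers 1.55.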

How the data were processed

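The data were RNA-Seq profiles of BM MSCs in 3 TranspCtrl and 3 TranspExer samples, grouped by their titles. The authors deposited an estimated count (expected count) per gene and sample, not normalized, together with a gene length. Between 10.1% and 12.2% of values per sample were not whole numbers, and all were rounded. The submitters' processing notes name mm10, and the aligner and counting tool are not given in the sources used here. For the libraries, a stranded mRNA kit is given in the labels and a TruSeq kit in the study's methods. Rows without a gene name held at most 0.172% of the counts.

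Genes were filtered (filterByExpr), scaled (TMM) and tested with edgeR 4.0.16 in R 4.3.3, using the quasi-likelihood test with group as the only term and Benjamini-Hochberg adjustment over 15190 genes. The thresholds were an adjusted p-value of 0.05 and a fold of 2. Each SE is the log2 fold change divided by the square root of its F statistic. TPM was computed from the unrounded counts and the deposited lengths. Intervals and floors at these depths cover counting error only. Coordinates and overlaps came from GENCODE M21. The tests were checked on simulated counts.

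The 10 genes and all lists were chosen with earlier results of these data known. Genes named were the 10 genes, up to 4 genes per list and direction with the smallest adjusted p-value among those past both thresholds, and all neighbors past both. *Srgn*, *Ctsc*, *Ltf*, *Ngp*, *Cebpa*, *Spi1*, *Flt3l*, *Kitl*, *Csf3*, *Lpo*, *Cfd*, *Mcpt8*, *Gzme*, *Col1a1*, *Col1a2*, *Cxcl12* and the undetected erythroid markers were named after their values were seen. Some items that this rule would name are not reported here. The alternatives tried were another tool (DESeq2 1.42.0, own size factors), scaling by upper quartile or by library size only, leaving out immunoglobulin genes, other filters on low counts, a replicate block and each sample left out in turn. Equal replicate numbers are not stated to be pairs.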

Additional observations from a re-analysis of the deposited data

How the results depend on the processing

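The 7 genes at least 2-fold higher without overlap remained 7 under every alternative run, and no log2 fold change of the 10 genes changed sign. Across all of these alternatives the log2 fold change lay between 2.27 and 2.61 for *Mpo*, 1.99 and 2.33 for *Elane*, 1.79 and 1.98 for *Ctsg*, 1.71 and 1.82 for *Prtn3*, 1.57 and 1.74 for *Myb*, 1.31 and 1.45 for *Ms4a3*, 1.01 and 1.18 for *Gfi1*, 0.57 and 0.73 for *Cebpe*, 0.09 and 0.22 for *Cd34* and -0.82 and -0.59 for *Flt3*. Scaling by library size only moved the median of all genes to -0.11, and by upper-quartile factors to -0.10.

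With each sample left out in turn, the primary granule cargo genes that fell numbered 0 to 2 (2 with all samples), the stem and progenitor genes that fell 0 to 1 (1 with all samples, 0 without TranspCtrl replicate 1) and the growth signal genes that fell 0 to 1 (1 with all samples, 0 without TranspExer replicate 1). No cargo gene that fell passed without TranspCtrl replicate 1 or without TranspExer replicate 3. Without a filter on low counts, 2 growth signal genes fell. The cause was not tested. *Ms4a2* lost its call in 7 alternatives, *Ear2* in 6, *Lyz1* in 4, *Lyz2*, *Erg* and *Pdgfra* in 2 and *Tal1* (without TranspCtrl replicate 1) and *Nt5e* in 1.

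Same-numbered samples deviated from their group means with correlations of 0.0247, -0.00167 and 0.0416, and differently numbered samples with -0.0807 to 0.0736. With 3 samples per group, these values cannot decide whether the numbers mark pairs. With the replicate block, 519 genes rose and 767 fell over all genes, against 531 and 802 without it, and the 10 genes kept their count of 7.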
